A study of Sus scrofa with 32 samples.

Results

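TBX21, EOMES, ID2, ID3, ZNF683, AHR and MAF encode transcription factors, or partners of them, that set the fate of T cells and innate lymphoid cells (ILCs), and they were followed across ileum and blood of pigs. They were taken by symbol and are 7 of the 25880 genes counted. In Sscrofa11.1, by the RefSeq gene table of that assembly, TBX21 lies at chr12:23996415-24009353, EOMES at chr13:14209590-14216184, ID2 at chr3:127500759-127503207, ID3 at chr6:81422541-81424169, ZNF683 at chr6:83756865-83765905, AHR at chr9:86511866-86555950 and MAF at chr6:8468736-8910012. Each gene was read in cells gated on raw unique molecular identifiers (UMIs), where a UMI counts 1 captured RNA molecule.

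Both animals were untreated mixed-breed pigs of 7 weeks, pig 1 female and pig 2 male by label. From each ileum came a piece holding Peyer's patches (PP), a piece free of them (non-PP) and a whole cross section, which gave 6 ileal libraries, and peripheral blood mononuclear cells (PBMCs) of the same 2 pigs gave 2 libraries. The ileal suspensions joined cells of the epithelium, lamina propria and submucosa. RNA was captured in droplets and counted at its 3′ end.

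TBX21 encodes T-bet, which drives type 1 responses such as interferon gamma production, and EOMES encodes its close relative, found in cytotoxic lymphocytes and natural killer cells. ZNF683 encodes Hobit, known in mice for tissue-resident lymphocytes and in humans also for circulating effector cells. ID2 and ID3 encode inhibitors of E proteins. ID2 is needed for ILC development, and ID3 is linked to naive and γδ T cells. AHR encodes a ligand-activated receptor that maintains group 3 ILCs and intraepithelial lymphocytes, and MAF encodes c-MAF, known in IL-10-producing, follicular helper and IL-17-producing T cells.

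Of 48629 cells that passed the filters, 12962 fell into 5 gates that do not overlap. The CD4, CD8B and TRDC gates required CD3E and 1 of these genes without the others, and stand for γδ T cells in the case of TRDC and for αβ T cells in the others. The CD3E=0 CD2>=1 gate required CD2 and no UMI of CD3E, CD4, CD8B, TRDC or IL22. The IL22 gate required IL22 without CD3E, CD4, CD8B or TRDC. A cell could hold at most 1 UMI of the B-lineage, of the myeloid and of the epithelial markers. The CD4, CD8B, TRDC, CD3E=0 CD2>=1 and IL22 gates held 843, 2501, 3865, 1432 and 200 cells in ileum. The same gates held 583, 1097, 1091, 1350 and 0 cells in blood. The count of 0 IL22 gate cells in blood allows a share of up to 0.0466% of cells in pig 1 and 0.0441% in pig 2, which covers counting error only.

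Libraries held 21134542 to 40111934 UMIs and 3776 to 7704 filtered cells, and pairs of libraries shared 21 to 80 cell barcodes. Levels below are UMIs of a gene per 1e6 UMIs (CPM). Y-linked genes, 4 in number, summed to 202 CPM for the whole ileum library labelled as pig 1. The other libraries of pig 1 held at most 2.57 CPM and those of pig 2 held 115 to 225 CPM. That library goes against its label, so counts of calls are also given without it. It supplied 331 of 529 cells of the ileal pig 1 sum in the CD3E=0 CD2>=1 gate and 35 of 80 in the IL22 gate. In the CD4, CD8B and TRDC gates it supplied 169 of 445, 490 of 1372 and 636 of 2112. These sums follow the label, so ileal sums called pig 1 and pig 2 may hold cells of the same animal and may not be independent. CD3D, a T cell receptor component, was detected in the CD3E=0 CD2>=1 gate in 50.9 to 76.6% of ileal and 27.8 to 40.3% of blood cells, so this gate is called by its rule and not by a cell type. In the IL22 gate, 48.3 to 73.5% of cells held KIT, a receptor known in group 3 ILCs, and of the T cell genes 2.94 to 14.3% held CD3D, 8.82 to 48.5% held CD3G, 17.6 to 22.9% held CD247 and 17.2 to 34.3% held CD5. Antibody-secreting cell markers (4 genes) summed to 40.6 to 19873 CPM in the ileal and 36.4 to 138 CPM in the blood CD3E=0 CD2>=1 gate. In ileum they summed to 70.6 to 17165 CPM in the IL22 gate, 32.3 to 4466 CPM in the CD8B gate, 54.5 to 2506 CPM in the TRDC gate and 0 to 919.6 CPM in the CD4 gate, and their part in the results was not tested.

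**Figure D1:**
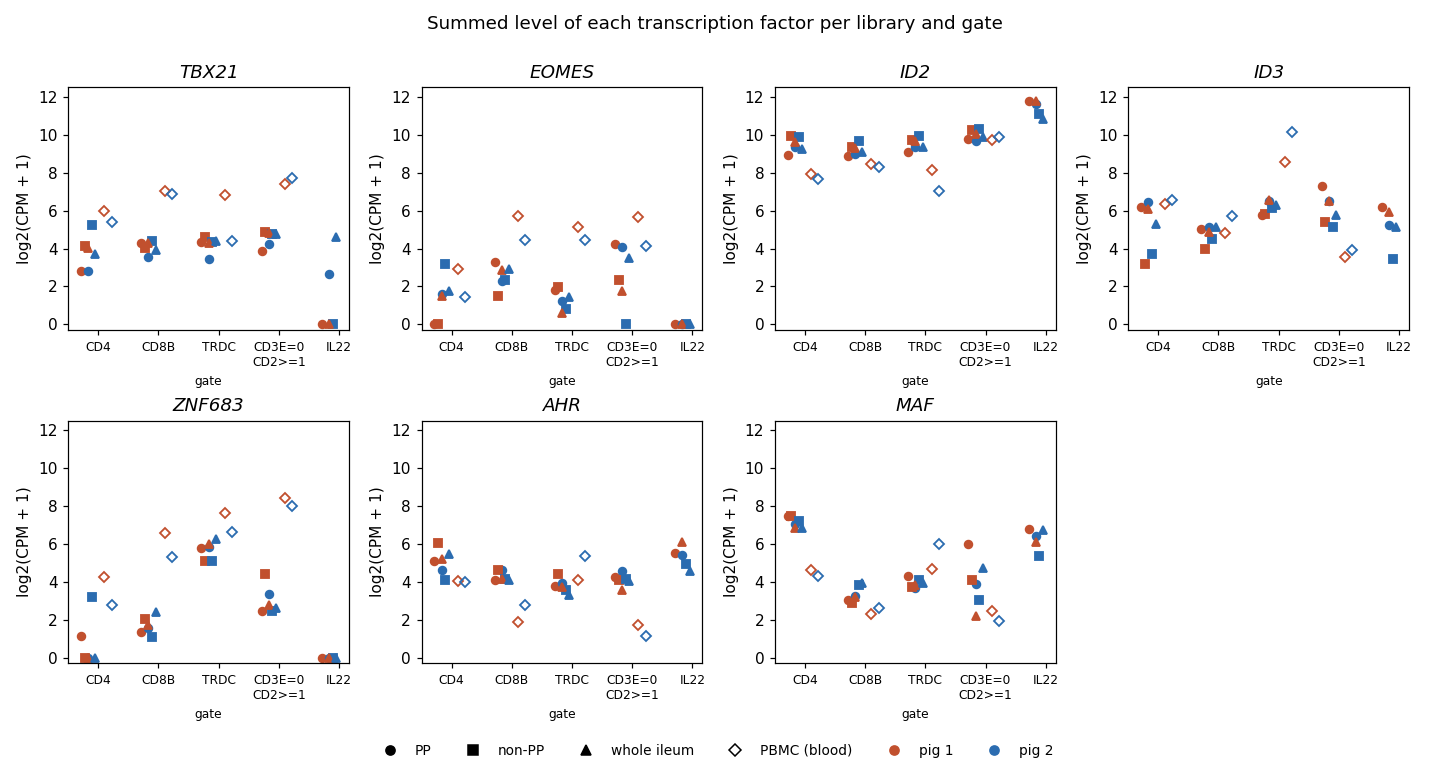
Level of each transcription factor as log2(CPM + 1), summed over the cells of each gate and library with at least 20 cells. Filled symbols are the 6 ileal libraries and open diamonds the 2 blood libraries, colored by pig. TBX21 and ZNF683 in the CD8B and CD3E=0 CD2>=1 gates lie higher in both blood libraries than in every ileal library, and ID2 in the IL22 gate lies above its other ileal values.

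Ileum and blood were compared within each gate, with 1 sum of UMIs per pig, tissue and gate as a replicate (2 pigs against 2 by label). Ileal cells were freed from tissue by warm incubations, enzyme digestion and mechanical dissociation, and blood cells were isolated in cell preparation tubes. Tissue and preparation therefore cannot be told apart in any ileum minus blood value, of members or of listed genes. TBX21, EOMES and ZNF683 were lower in ileum in most gates, ID2 was higher in the 3 T cell gates, and ID3 and MAF passed in opposite directions in different gates. In all, 20 of 28 tests passed an adjusted p of 0.05 in edgeR's quasi-likelihood test with Benjamini-Hochberg adjustment over all genes. The CD4 gate had 3 of 7 members passing, beside 9.91% of all genes tested. In the CD8B gate 5 passed (12.9% of genes), in the TRDC gate 6 (15.7%) and in the CD3E=0 CD2>=1 gate 6 (18.7%). Without the whole ileum library labelled as pig 1, 18 tests passed. The median log2 fold change over the members was -0.61, -0.64, -1.60 and 0.19 in these gates, and medians over all tested genes lay between -0.01 and 0.02. Fewer cells of a type and less RNA per cell cannot be told apart within a gate that mixes cell types. The 6 ileal libraries are pieces of the same 2 pigs by label, so they are not 6 independent values. How many of all genes lie without overlap between ileal and blood libraries was not counted.

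**Figure D2:**
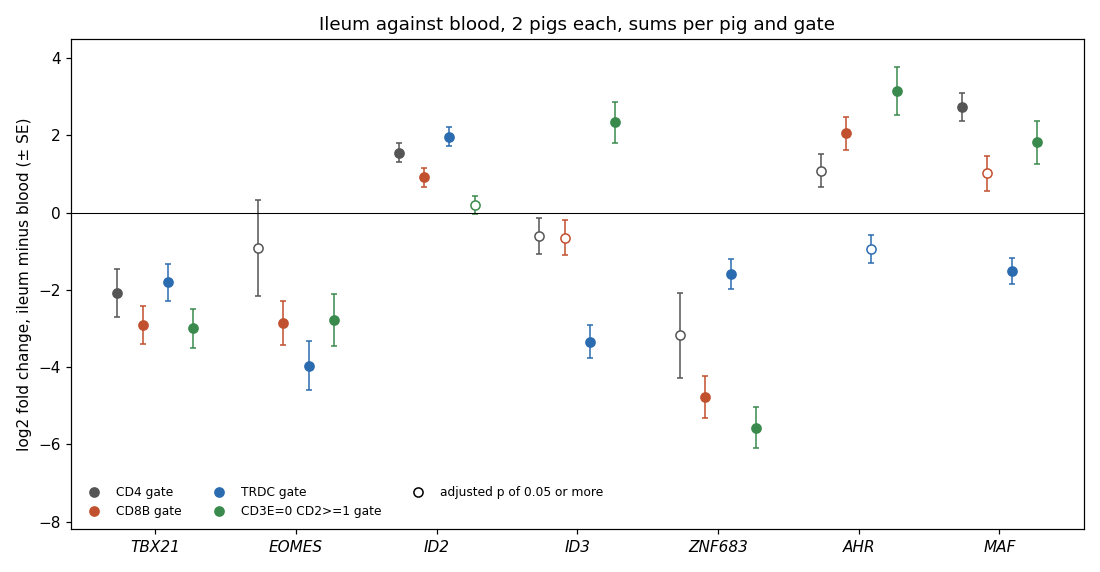
Log2 fold change of ileum minus blood with its standard error for the 7 transcription factors in the 4 gates present in both tissues, from sums per pig (2 against 2). Filled points passed an adjusted p of 0.05. TBX21, EOMES and ZNF683 lie below 0 in every gate, and ID3, AHR and MAF lie on both sides of 0.

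TBX21 was lower in ileum. In the CD3E=0 CD2>=1 gate the ileal libraries held 13.5, 26.3 and 28.4 CPM (lowest, median, highest), and blood of pig 1 and pig 2 held 165 and 210.5 CPM. The groups did not overlap, and the log2 fold change was -3.00 ± 0.50 (SE, adjusted p = 0.000764). In the CD8B gate the ileal libraries held 10.6, 16.8 and 19.9 CPM against 129.5 and 118 CPM in blood, again without overlap (-2.90 ± 0.48, adjusted p = 0.00107). For the CD4 gate ileum held 6.004 to 36.6 CPM and blood 62.7 and 41.8 CPM (-2.09 ± 0.62, adjusted p = 0.0469). This call was lost without the whole ileum library labelled as pig 1 (-2.22, adjusted p = 0.0544), PP pig 1 (-1.79, adjusted p = 0.101), PP pig 2 (-1.92, adjusted p = 0.0860) or whole ileum pig 2 (-2.08, adjusted p = 0.0527). It was also lost with doublets removed (-2.06, adjusted p = 0.0644) and with no UMI of other lineages (-2.01, adjusted p = 0.0738). Cells of at least 2000 UMIs lost it too (-2.18, adjusted p = 0.0604). Blood barcodes of 10 to 100 UMIs, too small to be cells, held TBX21 at 66.1 to 98.8 CPM, above the CD4 gate of the same tissue. Such barcodes of ileum held 4.90 to 16.1 CPM, so they moved the same way. The B gate (at least 3 B-lineage UMIs and none of the T cell genes) also did, with 0 to 6.15 CPM in ileum and 43.7 and 36.9 CPM in blood. The part of free RNA in the TBX21 differences was not tested. In the TRDC gate the ileal libraries held 9.74, 19.3 and 23.3 CPM and blood 112 and 20.4 CPM, so that blood of pig 2 lay within the ileal range (-1.81 ± 0.47, adjusted p = 0.0177). Without PBMC pig 1 the TRDC value was -0.10, adjusted p = 0.873.

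EOMES was low in ileum. The CD8B gate held 1.82, 5.24 and 8.84 CPM in ileum against 51.5 and 21.1 CPM in blood (-2.86 ± 0.56, adjusted p = 0.00425). The TRDC gate held at most 2.96 CPM in ileum and 34.0 and 21.0 CPM in blood (-3.96 ± 0.64, adjusted p = 0.000829). Neither gate showed an overlap. Over ileal libraries of the CD3E=0 CD2>=1 gate EOMES spread from 0 to 18.05 CPM, and it stood at 50.02 and 16.8 CPM in blood, so that blood of pig 2 lay below the highest ileal library (-2.78 ± 0.67, adjusted p = 0.0101). That call was lost where CD3D also had to be 0 (-1.75, adjusted p = 0.188), without the whole ileum library labelled as pig 1 (-2.48, adjusted p = 0.0580) and without non-PP pig 2 (-1.91, adjusted p = 0.0719). In barcodes of 10 to 100 UMIs EOMES stood at 1.09 to 3.29 CPM in ileum and 8.94 to 16.2 CPM in blood. EOMES rested in the CD4 gate on 1 and 4 UMIs in ileum and 6 and 3 in blood of pig 1 and pig 2 and did not pass.

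ZNF683 showed the largest drop of the members from blood to ileum in the CD8B and CD3E=0 CD2>=1 gates. In the CD3E=0 CD2>=1 gate the ileal libraries held 4.51, 5.57 and 20.3 CPM and blood held 339.5 and 256 CPM (-5.57 ± 0.53, adjusted p = 9.22e-06). In the CD8B gate ileum held at most 4.38 CPM and blood 95.4 and 39.3 CPM (-4.77 ± 0.54, adjusted p = 6.55e-05). The TRDC gate kept ZNF683 in ileum, with 33.6, 55.5 and 75.3 CPM, and blood held 199 and 96.3 CPM (-1.60 ± 0.39, adjusted p = 0.0130). These 3 gates were separated without overlap. After every cell was thinned to 1250 UMIs, 5.45% of ileal TRDC gate cells held a UMI of ZNF683 on average over libraries and 15% of blood cells did. In barcodes of 10 to 100 UMIs ZNF683 stood at 4.81 to 7.45 CPM in ileum and at 181 and 62.6 CPM in blood of pig 1 and pig 2, so they moved the same way, and in blood they lay above the CD8B gate of the same pig. Their part in the difference was not tested. The myeloid gate, which should lack the gene, held 0 UMIs of ZNF683 in ileum and 8.17 and 2.94 CPM in blood. ZNF683 had in the CD4 gate 1 and 2 UMIs in ileum and 16 and 10 in blood and did not pass.

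ID2 was higher in the ileal T cell gates. The CD4 gate held 494, 714 and 988 CPM in ileum and 244 and 205 CPM in blood (1.55 ± 0.24, adjusted p = 0.000872). The TRDC gate held 536, 734 and 960.4 CPM in ileum and 280.3 and 132 CPM in blood (1.96 ± 0.24, adjusted p = 8.11e-05), and the CD8B gate 469, 576 and 799 CPM against 353 and 311 CPM (0.91 ± 0.24, adjusted p = 0.0203). Every ileal library lay above both blood libraries in these gates, and the CD8B call was lost without non-PP pig 2 (0.74, adjusted p = 0.0569). A UMI of ID2 was found in 52.3% of thinned ileal and 17.8% of thinned blood cells of the TRDC gate. ID2 stood in the CD3E=0 CD2>=1 gate at 821 to 1239 CPM in ileum and 849 and 941 CPM in blood, which overlap (0.19 ± 0.23, adjusted p = 0.636). Barcodes of 10 to 100 UMIs held ID2 at 399 to 1067 CPM in ileum and 260.3 to 464 CPM in blood. The higher ileal level was not confined to T cell gates. The B gate held 114 to 176 CPM of ID2 in ileum and 53.8 and 53.9 CPM in blood. The myeloid gate held 891 to 1144 CPM in ileum and 305 and 209 CPM in blood.

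ID3 split by gate. The TRDC gate held 53.9, 74.0 and 94.5 CPM in ileum, whereas blood held 378 and 1112 CPM, without overlap (-3.34 ± 0.43, adjusted p = 0.000117). The direction was the opposite in the CD3E=0 CD2>=1 gate, with 33.9, 71.9 and 153 CPM in ileum against 10.6 and 13.9 CPM in blood (2.34 ± 0.53, adjusted p = 0.00622). Barcodes of 10 to 100 UMIs held ID3 at 56.3 to 314 CPM in ileum, a range that covers most of these ileal values, and the B gate (at least 3 B-lineage UMIs and none of the T cell genes) held 452 to 581 CPM. Their part in the ileal ID3 values was not tested. In the CD4 (-0.61 ± 0.46, adjusted p = 0.486) and CD8B gates (-0.64 ± 0.45, adjusted p = 0.395) ID3 did not pass.

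AHR was higher in ileum in the CD3E=0 CD2>=1 and CD8B gates. The former held 10.7, 16.6 and 22.7 CPM in ileum and 2.27 and 1.23 CPM in blood, with 3 and 3 UMIs behind the blood values (3.16 ± 0.62, adjusted p = 0.00242). The CD8B gate held 16.1, 16.9 and 24.0 CPM in ileum and 2.66 and 5.98 CPM in blood (2.05 ± 0.43, adjusted p = 0.00525). Neither gate showed an overlap between tissues. Barcodes of 10 to 100 UMIs held AHR at 9.26 to 12.7 CPM in ileum and 3.41 to 6.79 CPM in blood. The B gate was also higher in ileum, with 13.2 to 29.3 CPM of AHR against 2.74 and 4.74 CPM in blood. The myeloid gate overlapped, with 0 to 48.4 CPM in ileum and 39.7 and 38.1 CPM in blood. In the CD4 (1.08 ± 0.42, adjusted p = 0.132) and TRDC gates (-0.94 ± 0.36, adjusted p = 0.0968) AHR did not pass. Within the TRDC gate AHR stood at -1.80, adjusted p = 0.0126 in cells without a CD2 UMI and at 0.99, adjusted p = 0.217 in cells with one, a split described with CD2.

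MAF rose in the ileal CD4 gate and fell in the TRDC gate. The CD4 gate held 114, 138 and 179.6 CPM in ileum, all above the 23.5 and 19.1 CPM of blood (2.73 ± 0.36, adjusted p = 0.000180). After thinning, 18.8% of ileal and 2.98% of blood CD4 gate cells held a UMI of MAF. Barcodes of 10 to 100 UMIs held MAF at 10.0 to 44.3 CPM in ileum and 4.68 to 5.01 CPM in blood, and the B gate held 0 to 2.48 CPM in ileum and 0.171 and 0.176 CPM in blood. The ileal CD4 gate lay above these values, whereas the ileal TRDC gate lay within the range of the small barcodes. For the TRDC gate ileum held 11.8, 13.8 and 18.6 CPM and blood 24.5 and 61.9 CPM (-1.51 ± 0.33, adjusted p = 0.00570). Without PBMC pig 2 the TRDC value was -0.74, adjusted p = 0.0987, and a split by CD2 changed it as described with that split. The CD8B gate held 6.38, 8.39 and 14.2 CPM in ileum and 3.99 and 5.12 CPM in blood and did not pass (1.02 ± 0.45, adjusted p = 0.164). The CD3E=0 CD2>=1 gate held 3.58 to 63.2 CPM in ileum and 4.55 and 2.87 CPM in blood, which overlap (1.83 ± 0.56, adjusted p = 0.0329). This call was lost without PP pig 1 (1.35, adjusted p = 0.138), without whole ileum pig 2 (1.65, adjusted p = 0.0655) and without PBMC pig 2 (1.42, adjusted p = 0.106).

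Whether the tissue difference depended on the gate was tested as an interaction, the ileum minus blood difference of a gate less its mean over the remaining gates. The tests of a gene in different gates share these means and are not independent. Members passed in 6 of 28 tests, and in 4 without the whole ileum library labelled as pig 1. For the TRDC gate 3 of 7 passed, beside 0.408% of all genes. ID3 (-3.70 ± 0.50, adjusted p = 0.00534), MAF (-3.37 ± 0.42, adjusted p = 0.00347) and AHR (-3.03 ± 0.47, adjusted p = 0.0143) had lower ileum minus blood differences there than in the other gates. For the CD3E=0 CD2>=1 gate 2 of 7 passed (1.19% of genes), ID3 upward (3.87 ± 0.59, adjusted p = 0.00552) and ID2 downward (-1.29 ± 0.27, adjusted p = 0.0340). In the CD4 gate MAF passed upward (2.29 ± 0.46, adjusted p = 0.0284), 1 of 7 beside 1.28% of genes. Without the whole ileum library labelled as pig 1 the ID2 value was -1.23, adjusted p = 0.134 and the CD4 gate MAF value was 2.20, adjusted p = 0.145. Leaving out PBMC pig 2 gave 1.95, adjusted p = 0.0928 for MAF in the CD4 gate and -2.33, adjusted p = 0.101 for AHR in the TRDC gate. The ID2 call was also lost without PP pig 2 (-1.27, adjusted p = 0.0892) or non-PP pig 2 (-1.25, adjusted p = 0.0519). In cells of at least 2000 UMIs ID3 (-3.48, adjusted p = 0.0609) and MAF (-2.83, adjusted p = 0.117) lost their TRDC gate calls. The calls of AHR in that gate (-2.94, adjusted p = 0.0609), MAF in the CD4 gate (2.26, adjusted p = 0.138) and ID2 (-0.94, adjusted p = 0.234) were lost too. With CD3D at 0, MAF in the CD4 gate stood at 1.86, adjusted p = 0.0990 and ID2 at -1.26, adjusted p = 0.0537. In the CD8B gate 0 members passed in edgeR, beside 0% of genes, 0 had an unadjusted p below 0.05 and 0 passed in DESeq2, while 493 of all genes had an unadjusted p below 0.05.

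Within ileum, each gate was contrasted with the mean over the remaining 4. A gene that is high in some gates raises the mean set against the others, so its tests in different gates are not independent. Members passed in 9 of 35 tests, and in 6 without the whole ileum library labelled as pig 1. MAF passed in all 5 gates. It was higher in the CD4 (2.87 ± 0.23, adjusted p = 2.56e-06) and IL22 gates (1.83 ± 0.35, adjusted p = 0.00320) and lower in the CD8B (-1.96 ± 0.30, adjusted p = 0.00186), TRDC (-1.24 ± 0.28, adjusted p = 0.0215) and CD3E=0 CD2>=1 gates (-1.502 ± 0.33, adjusted p = 0.0119). Pig sums of MAF were 156 and 128 CPM in the CD4 gate, 78.3 and 77.3 CPM in the IL22 gate and at most 16.1 CPM in the remaining gates. Among these, the CD3E=0 CD2>=1 gate (16.1 and 11.4 CPM) overlapped the CD8B (7.17 and 12.3 CPM) and TRDC gates (14.1 and 14.6 CPM), which did not overlap each other. The lower calls of MAF were taken against means that held the CD4 and IL22 gates. ZNF683 was higher in the TRDC gate (adjusted p = 0.000107), with pig sums of 46.9 and 49.1 CPM against at most 8.42 CPM in the other gates. ID2 was higher in the IL22 gate (1.98 ± 0.17, adjusted p = 1.77e-06) and lower in the CD4 (-0.74 ± 0.20, adjusted p = 0.0225) and CD8B gates (-0.83 ± 0.20, adjusted p = 0.0249). Pig sums of ID2 overlapped between the CD4 (635 and 700 CPM) and CD8B gates (601 and 647 CPM), and the TRDC gate held 764 and 811 CPM. The lower calls of ID2 were taken against means that held the IL22 gate (3379 and 2599 CPM).

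By gate, 2 of 7 members passed within ileum in the CD4 gate (12.1% of genes), 2 in the CD8B gate (4.88%), 2 in the TRDC gate (3.51%), 1 in the CD3E=0 CD2>=1 gate (7.79%) and 2 in the IL22 gate (8.5%). Without the whole ileum library labelled as pig 1, ID2 in the CD8B gate stood at -0.79, adjusted p = 0.0712. MAF then stood at -1.38, adjusted p = 0.0854 in the TRDC gate and at -1.004, adjusted p = 0.313 in the CD3E=0 CD2>=1 gate. Leaving out PP pig 1 gave -0.57, adjusted p = 0.0724 for ID2 in the CD4 gate and -1.13, adjusted p = 0.0527 for MAF in the TRDC gate. Leaving out PP pig 2 gave -0.74, adjusted p = 0.0544 and -1.16, adjusted p = 0.0546 for the same, and -0.78, adjusted p = 0.0789 for ID2 in the CD8B gate. In the CD3E=0 CD2>=1 gate MAF stood at -0.44, adjusted p = 0.657 where CD3D also had to be 0 and at -0.89, adjusted p = 0.176 where no UMI of other lineages was allowed. Without non-PP pig 2 MAF in the CD3E=0 CD2>=1 gate stood at -1.01, adjusted p = 0.141. TBX21, EOMES, ID3 and AHR passed in none of the 5 gates in edgeR. TBX21 pig sums lay between 10.1 and 25.3 CPM in the 4 gates other than IL22.

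The IL22 gate had the highest ID2 of the 5 gates. Its 5 libraries with at least 20 cells held 1830, 3148 and 3548 CPM, all above the highest library of the other ileal gates (1239 CPM). Against the CD3E=0 CD2>=1 gate, ID2 (1.57 ± 0.24, adjusted p = 0.000888) and MAF (2.66 ± 0.44, adjusted p = 0.00166) were higher, 2 of 7 members beside 8.18% of genes. MAF held 40.4 to 108 CPM in the IL22 gate and 3.58 to 63.2 CPM in the other, which overlap. The MAF call was lost without the whole ileum library labelled as pig 1 (2.15, adjusted p = 0.0540), which left 1 call. It was also lost where CD3D had to be 0 (1.67, adjusted p = 0.0533), which again left 1 call. AHR stood at 52.2 and 34.7 CPM in the IL22 gate of pig 1 and pig 2 and at 13.01 and 17.8 CPM in the CD3E=0 CD2>=1 gate (1.55 ± 0.49, adjusted p = 0.0708). EOMES and ZNF683 had 0 UMIs in the IL22 gate of both pigs, which allows up to 11.2 CPM in pig 1 and 7.997 CPM in pig 2. The CD3E=0 CD2>=1 gate held 5.36 and 4.66 CPM of EOMES and 8.42 and 5.50 CPM of ZNF683, so no difference was detectable at this depth.

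Within blood, members passed in 13 of 28 tests, and in 11 without the whole ileum library labelled as pig 1. That library reaches blood only through the shared fit. Here too each gate was set against the mean of the others, so tests of a gene in different gates are not independent. The CD3E=0 CD2>=1 gate had 6 of 7 members passing, beside 11% of genes. ZNF683 (2.66 ± 0.31, adjusted p = 0.000110), ID2 (1.84 ± 0.18, adjusted p = 1.70e-05) and TBX21 (1.31 ± 0.34, adjusted p = 0.0242) were higher. ID3 (-3.46 ± 0.48, adjusted p = 0.000305), AHR (-2.93 ± 0.57, adjusted p = 0.00406) and MAF (-2.19 ± 0.47, adjusted p = 0.00781) were lower. Pig sums of ID3 and AHR lay below those of every other blood gate. Those of MAF, 4.55 and 2.87 CPM in pig 1 and pig 2, overlapped the CD8B gate (3.99 and 5.12 CPM). For the TRDC gate 4 of 7 passed, beside 2.52% of genes, and their directions were the reverse, in tests that share means with those above. There ID3 (4.35 ± 0.32, adjusted p = 1.50e-06), MAF (2.54 ± 0.31, adjusted p = 0.000337) and AHR (2.45 ± 0.36, adjusted p = 0.00115) were higher and ID2 was lower (-1.01 ± 0.21, adjusted p = 0.0158).

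In the blood CD4 gate ZNF683 (-3.75 ± 0.49, adjusted p = 0.000803), EOMES (-3.11 ± 0.69, adjusted p = 0.0232) and ID2 (-0.79 ± 0.21, adjusted p = 0.0460) were lower, 3 of 7 beside 3.76% of genes. The EOMES (-3.10, adjusted p = 0.0503) and ID2 calls (-0.79, adjusted p = 0.0891) were lost without the whole ileum library labelled as pig 1. In the blood CD8B gate 0 members passed in edgeR, beside 1.09% of genes, with 3 at an unadjusted p below 0.05 and 1 in DESeq2. Without PBMC pig 2, 8 of the blood tests passed. The ID2 call of the CD4 gate was also lost without PP pig 2 (-0.82, adjusted p = 0.0848). Pig sums of ID2 in the blood CD4 gate (244 and 205 CPM) overlapped the TRDC gate (280 and 132 CPM). The lower calls of ID2 in blood were taken against means that held the CD3E=0 CD2>=1 gate (849 and 941 CPM). In the TRDC gate without PBMC pig 2 the AHR value was 1.75, adjusted p = 0.132, the MAF value 1.66, adjusted p = 0.0794 and the ID2 value -0.62, adjusted p = 0.230. The CD3E=0 CD2>=1 gate then gave -1.90, adjusted p = 0.137 for AHR, -1.51, adjusted p = 0.150 for MAF and 0.79, adjusted p = 0.0691 for TBX21.

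Pig γδ T cells fall into CD2- and CD2+ populations, so the TRDC gate was split by CD2. Cells without a CD2 UMI were 654 of 1091 in blood and 880 of 3865 in ileum, and a cell whose CD2 was missed counts among them. Blood CD2=0 cells held fewer UMIs each than CD2>=1 cells. Pig 1 had 841391 UMIs in 303 cells against 1481446 in 261, and pig 2 880726 in 351 against 687088 in 176. Ileal classes lay closer. Pig 1 had 1286739 UMIs in 456 cells against 5177654 in 1656, and pig 2 1137998 in 424 against 4074747 in 1329. The part of depth in the CD2 results was not tested. In blood of pig 1 and pig 2 MAF was 57.0 and 104 CPM in CD2=0 cells against 6.08 and 7.28 CPM in CD2>=1 cells (3.68 ± 0.39, adjusted p = 4.89e-05). AHR was 38.0 and 61.3 CPM against 3.38 and 14.6 CPM (2.80 ± 0.51, adjusted p = 0.00742). Both passed, 2 of 7 members beside 1.72% of genes that passed. Pig sums of the 2 classes did not overlap for MAF and AHR, nor for ID3, ID2 and EOMES, which did not pass. How many of all genes lie without overlap between the CD2 classes, in blood or ileum, was not counted. The AHR call was lost without PBMC pig 1 (2.16, adjusted p = 0.0864). ID3 stood at 818 and 1483 CPM against 128 and 636 CPM and did not pass (1.67 ± 0.50, adjusted p = 0.111). TBX21 stood at 44.0 and 11.4 CPM in CD2=0 and 151 and 32.0 CPM in CD2>=1 cells and did not pass (-1.79 ± 0.55, adjusted p = 0.113).

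In ileum MAF passed, 1 of 7 members beside 0.341% of genes. Its libraries held 22.8, 37.1 and 64.2 CPM in CD2=0 and 5.21, 8.51 and 9.70 CPM in CD2>=1 cells, without overlap (2.18 ± 0.31, adjusted p = 0.00288). Without the whole ileum library labelled as pig 1 the value was 2.11, adjusted p = 0.110, and 2 of the 14 tests of both tissues passed in place of 3. With the pig as a block, 7 of them passed. Ileal libraries overlapped between CD2=0 and CD2>=1 cells for ID3 (56.7 to 109 CPM and 49.7 to 98.2 CPM) and AHR (5.55 to 26.4 CPM and 10.4 to 19.4 CPM).

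Ileum was also compared with blood within each CD2 class, an alternative added after the data had been seen. In CD2=0 cells 4 of 7 members passed, beside 11.3% of genes, and in CD2>=1 cells 5 of 7, beside 16%. MAF stood at -1.09, adjusted p = 0.0196 in CD2=0 cells and at 0.41, adjusted p = 0.593 in CD2>=1 cells. AHR stood at -1.80, adjusted p = 0.0126 in CD2=0 cells, where it passed as lower in ileum, and at 0.99, adjusted p = 0.217 in CD2>=1 cells. ID2 passed in both, at 2.55, adjusted p = 1.14e-05 in CD2=0 and 1.62, adjusted p = 0.000541 in CD2>=1 cells. ID3 passed in both, at -3.88, adjusted p = 0.000233 in CD2=0 and -2.36, adjusted p = 0.00561 in CD2>=1 cells. EOMES (-4.48, adjusted p = 0.000289), TBX21 (-2.22, adjusted p = 0.00458) and ZNF683 (-2.10, adjusted p = 0.00289) passed in CD2>=1 cells. In CD2=0 cells their values were -2.97, adjusted p = 0.115 for EOMES, -0.92, adjusted p = 0.452 for TBX21 and -0.42, adjusted p = 0.620 for ZNF683. The difference between the CD2 classes was not tested.

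**Figure D3:**
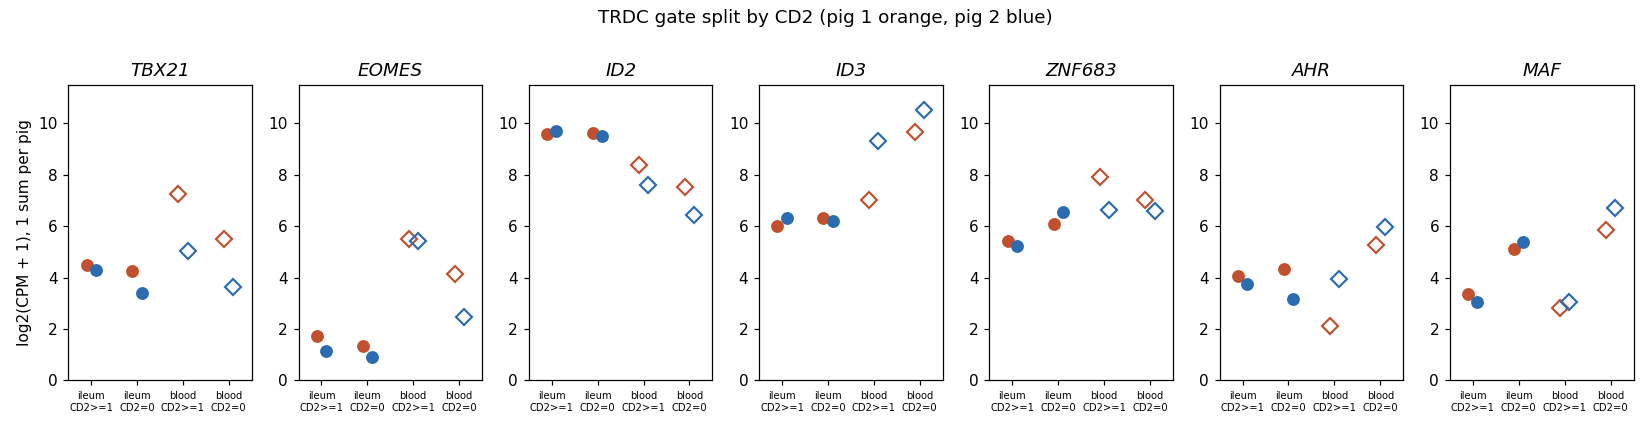
Level as log2(CPM + 1) of the 7 transcription factors in TRDC gate cells of ileum (filled circles) and blood (open diamonds), split by CD2, with 1 point per pig. MAF lies higher in CD2=0 than in CD2>=1 cells in both tissues and both pigs, and AHR does so in blood.

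PP and non-PP tissue were compared within ileum. ID3 was the member that passed, in 2 of 35 tests. In the CD4 gate ID3 held 72.1 and 86.1 CPM in PP of pig 1 and pig 2 against 8.16 and 12.2 CPM in non-PP (2.85 ± 0.59, adjusted p = 0.0221). The non-PP values rest on 1 and 3 UMIs. In the CD3E=0 CD2>=1 gate ID3 held 153 and 91.0 CPM in PP and 40.6 and 33.9 CPM in non-PP (1.83 ± 0.34, adjusted p = 0.00722). PP and non-PP values of ID3 did not overlap in either gate, and how many of all genes lie without such overlap was not counted. In the CD4 gate 1 of 7 members passed, beside 0.678% of genes, and in the CD3E=0 CD2>=1 gate 1 passed, beside 0.865%. In the CD8B gate ID3 held 31.4 and 34.6 CPM in PP and 14.6 and 21.7 CPM in non-PP, higher in both pigs, and did not pass (0.94 ± 0.32, adjusted p = 0.999). Barcodes of 10 to 100 UMIs moved the same way, with 304 and 314 CPM of ID3 in PP and 72.8 and 56.3 CPM in non-PP. The B gate held 475 and 452 CPM in PP and 501 and 581 CPM in non-PP. The part of free RNA in the difference was not tested. The CD4 call was lost without any 1 of the 4 libraries, among them non-PP pig 2 (3.28, adjusted p = 0.379). The other call was lost without PP pig 1 (1.53, adjusted p = 0.150) or non-PP pig 2 (1.51, adjusted p = 0.406). In cells of at least 2000 UMIs both calls were lost (2.82, adjusted p = 0.137 in the CD4 gate and 1.71, adjusted p = 0.0973 in the other). The CD4 call was also lost where no UMI of other lineages was allowed (3.07, adjusted p = 0.0891). With CD3D at 0, a rule for the gates without CD3E, it stood at 2.83, adjusted p = 0.0510.

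In the CD8B, TRDC and IL22 gates 0 members passed between PP and non-PP in edgeR or DESeq2, beside 0.0819%, 0.105% and 0.14% of genes in edgeR. Members with an unadjusted p below 0.05 in edgeR numbered 2, 2 and 1. The IL22 gate had 11 cells in non-PP pig 1, which was left out, so non-PP there is 1 library assumed to vary like the others.

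**Figure D4:**
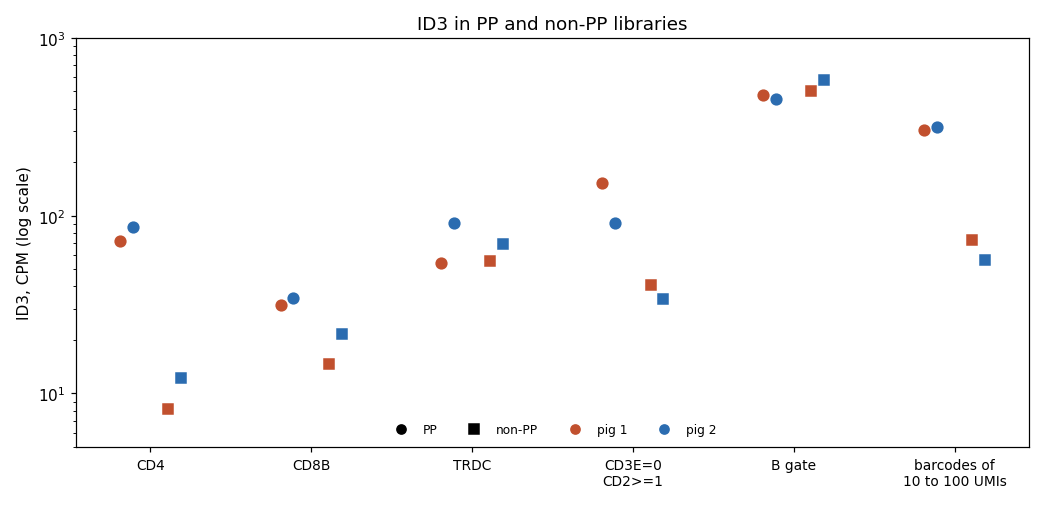
ID3 in CPM on a log axis in 4 lymphocyte gates, the B gate and barcodes of 10 to 100 UMIs of the PP (circles) and non-PP (squares) libraries, colored by pig. ID3 lies higher in PP in both pigs in the CD4, CD8B and CD3E=0 CD2>=1 gates and in the barcodes of 10 to 100 UMIs, and not in the B gate.

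Genes tied to these factors were counted from written lists. Of all genes tested, 9.91%, 12.9%, 15.7% and 18.7% passed in the CD4, CD8B, TRDC and CD3E=0 CD2>=1 gates. These shares stand beside every list count of ileum minus blood below. The lists of 5 or 6 tested genes are too short to be read against them. Of 15 genes linked to TBX21, EOMES and ZNF683, 3, 4, 6 and 3 were higher and 5, 6, 6 and 5 lower in ileum in the CD4, CD8B, TRDC and CD3E=0 CD2>=1 gates, with list medians of -0.76, -0.34, 0.52 and -0.83. S1PR5, a receptor for leaving tissue, held 2 and 0 UMIs in the ileal CD8B gate of pig 1 and pig 2 and 141 and 174 in blood (adjusted p = 3.12e-05). CX3CR1, a chemokine receptor of circulating effector cells, fell in the same gate (-7.54 ± 0.87, adjusted p = 7.06e-05). ITGAE, the integrin that binds epithelium, rose there (3.65 ± 0.23, adjusted p = 2.85e-07), as did CD69, which marks tissue retention (2.74 ± 0.44, adjusted p = 0.000752). IFNG, the interferon gamma gene, rose in the CD4 (2.83 ± 0.38, adjusted p = 0.000251), CD8B (1.83 ± 0.31, adjusted p = 0.00126) and TRDC gates (1.94 ± 0.37, adjusted p = 0.00227), in which TBX21 was lower, and was named after its values had been seen.

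Of 28 other lineage transcription factors, 26 were tested. In the same order of gates 8, 4, 6 and 5 were higher and 2, 5, 6 and 6 lower in ileum, with medians of 0.63, -0.03, 0.16 and 0.24. NFIL3, which is needed for ILC development, rose in the TRDC gate (4.05 ± 0.22, adjusted p = 6.45e-08). NR4A1, which is induced by antigen receptor signals, rose in the CD8B gate (4.79 ± 0.58, adjusted p = 7.41e-05). KLF2, a factor of naive and circulating T cells, fell in the CD8B gate (-4.86 ± 0.37, adjusted p = 1.31e-06). ZEB2, which acts with T-bet in effector cells, fell in the CD3E=0 CD2>=1 gate (-5.35 ± 0.59, adjusted p = 2.16e-05).

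Of 7 AHR pathway genes, 5 were tested, and 1, 2, 1 and 2 were higher in ileum and none lower, with medians of 0.35, 0.18, 0.37 and 0.99. AHRR, the repressor that AHR induces, was higher in ileum in all 4 gates. It held 82 and 43 UMIs in the ileal CD8B gate of pig 1 and pig 2 and 0 and 1 in blood (adjusted p = 0.000222). The TRDC gate held 69 and 39 UMIs of AHRR in ileum and 0 and 0 in blood (adjusted p = 0.000750), a gate in which AHR itself did not pass. TIPARP, another AHR target, rose in the CD8B (0.86 ± 0.22, adjusted p = 0.0163) and CD3E=0 CD2>=1 gates (0.99 ± 0.24, adjusted p = 0.00954).

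Of 7 genes linked to MAF, 6 were tested, and 3, 1, 1 and 0 were higher in ileum and none lower. In the ileal CD4 gate, where MAF was also higher, IL10 held 206 and 288 CPM against 13.4 and 16.8 CPM in blood (3.96 ± 0.47, adjusted p = 8.35e-05). CXCR5, the follicle-homing receptor, held 52.5 and 22.3 CPM against 7.84 and 5.80 CPM (2.47 ± 0.56, adjusted p = 0.0115). Of 5 E protein and other ID genes, 2, 0, 1 and 1 were higher and none lower. ID1, a relative of ID2 and ID3, rose in the CD3E=0 CD2>=1 gate (3.20 ± 0.85, adjusted p = 0.0168), with 18.4 and 4.66 CPM in ileum and 0.758 and 1.23 CPM in blood. The blood values lie at or below the level of 3 UMIs, which is 2.27 CPM in pig 1 and 1.23 CPM in pig 2. Stromal markers (COL1A1, COL3A1 and PECAM1) summed to 2.61 to 187 CPM in ileum and 1.64 to 3.03 CPM in blood of this gate. Their part in the ID1 difference was not tested.

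The members' patterns were described by Pearson's r of log2 CPM over 18 sums, which share libraries, so r carries no test. TBX21 followed EOMES (r = 0.82) and ZNF683 (r = 0.80) and ran against AHR (r = -0.83), and AHR followed MAF (r = 0.86). Among 9057 genes the closest named gene was SAMD3 for TBX21 (r = 0.94), STRBP for EOMES (r = 0.89), EVI2A for ID2 (r = 0.93), DPPA5 for ID3 (r = 0.86), S100A1 for ZNF683 (r = 0.94), SRGN for AHR (r = 0.90) and PPP1CC for MAF (r = 0.90).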

How the data were processed

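Libraries were made with 10x 3′ v2 chemistry from 6 ileal dissections and 2 PBMC preparations of 2 pigs, and the 32 samples are 4 sequencing runs of each of 8 libraries. The authors aligned reads with Cell Ranger to Sscrofa11.1 with a modified Ensembl annotation and deposited raw UMI counts of all barcodes, before their removal of free RNA, cell filter and doublet removal. Here the counts of the runs of a library were summed. Cells of at least 1250 UMIs and 550 genes and at most 12.5% mitochondrial UMIs were kept. Symbols were given to 977 IDs from a gene table, and 7170 IDs stayed without one. Gates allowed at most 1 UMI of B-lineage, myeloid or epithelial markers. Doublets called by Scrublet (scanpy 1.11.5) stayed in and were removed in an alternative, and free RNA was not subtracted.

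UMIs were summed per pig, tissue and gate (at least 20 cells), so the replicate is the pig by label. The ileal sums of pig 1 include the library that goes against its label. Sums were tested with edgeR 4.0.16 (quasi-likelihood, TMM, filterByExpr) in R 4.3.3, with all gates and tissues in 1 fit and Benjamini-Hochberg adjustment over all genes, called at an adjusted p of 0.05. PP and non-PP were fitted per library. The method was run on simulated counts drawn independently for each sum, without pig, library or gate effects. That run could not check the p-values for sums that share libraries or pigs. By label, same-numbered samples come from the same pig, which the Y-linked genes contradict for 1 ileal library, and their deviations in ileum and blood correlated at 0.14, 0.27, 0.33 and 0.10 in the CD4, CD8B, TRDC and CD3E=0 CD2>=1 gates. Alternatives were DESeq2 1.42.0, other size factors, no count filter, a pig block, sums per library, stricter gates, deeper cells and leaving out each library. Named are the 7 members, up to 2 of the highest and 2 of the lowest log2 fold changes among the genes of a list that passed in a contrast, and genes closest to a member in pattern. IFNG was also named, after its values had been seen and, in the CD8B gate, outside this rule. The members and lists were chosen with earlier results of these data known. No sequence of the members was used here.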

Additional observations from a re-analysis of the deposited data

Results flagged for a closer look

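A level of 1 library stood apart from the others of its gate, by Dixon's criterion, in 7 of 33 sets of ileal libraries. The criterion's rate of about 1 in 20 holds for normal values of like libraries. These sets mix dissections and some rest on few UMIs, so the count cannot be set against that rate. In the CD4 gate non-PP pig 2 stood above the other libraries for 3 genes. TBX21 was at 36.6 CPM from 9 UMIs, against 6.004 to 16.3 CPM in the others. EOMES was at 8.14 CPM from 2 UMIs, against 0 to 2.38 CPM in the others. ZNF683 was at 8.14 CPM from 2 UMIs, against 0 to 1.202 CPM in the others. In the CD3E=0 CD2>=1 gate MAF in PP pig 1 was at 63.2 CPM from 14 UMIs, against 3.58 to 25.8 CPM in the others, and ZNF683 in non-PP pig 1 was at 20.3 CPM from 5 UMIs, against 4.51 to 9.10 CPM in the others. In the TRDC gate TBX21 in PP pig 2 was low, at 9.74 CPM from 14 UMIs, against 18.2 to 23.3 CPM in the others. In the IL22 gate TBX21 in whole ileum pig 2 was at 23.2 CPM from 2 UMIs, against 0 to 5.27 CPM in the others.

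The ileum minus blood difference of 1 gate departed from its mean over the remaining gates for 4 genes in edgeR's interaction test. ID3 departed by -3.70 ± 0.50 (adjusted p = 0.00534) in the TRDC gate and by 3.87 ± 0.59 (adjusted p = 0.00552) in the CD3E=0 CD2>=1 gate. MAF departed by -3.37 ± 0.42 (adjusted p = 0.00347) in the TRDC gate and by 2.29 ± 0.46 (adjusted p = 0.0284) in the CD4 gate. AHR departed by -3.03 ± 0.47 (adjusted p = 0.0143) in the TRDC gate, and ID2 by -1.29 ± 0.27 (adjusted p = 0.0340) in the CD3E=0 CD2>=1 gate. Of these calls, only that of ID3 in the CD3E=0 CD2>=1 gate was kept in cells of at least 2000 UMIs. The causes were not tested.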

How the results depend on the processing

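Of the 55 member tests that passed, 55 kept their call under DESeq2, under RLE size factors, with every gene of at least 1 count and with the pig as a replicate block. Taking 1 setting at a time, 16 calls were lost with cells of at least 2000 UMIs, 13 without the whole ileum libraries, 6 with CD3D at 0, 3 with no UMI of other lineages, 2 with doublets removed and 1 with sums per library. MAF in ileum minus blood of the TRDC gate stood at 0.41 in CD2>=1 cells, the opposite direction. From the sums labelled as 1 pig, which allow no test, 55 of the 55 values kept their sign, and 16 without pig 1 and 17 without pig 2 moved by more than the spread between replicates. That spread came from the same per-pig values, which were computed in another way than the edgeR values. It is small where the pigs are alike, so these counts do not measure the effect of leaving out a pig. The pig 1 sums include the library that goes against its label.

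Counts of members passed moved as follows. The shares of all genes that passed under each setting do not stand beside them. The counts therefore describe the settings and are not a result about the members. With no filter on low counts they were 15 for gates within ileum (9 with the filter), 23 for gates within blood (13), 4 for IL22 against CD3E=0 CD2>=1 (2), 11 for the interaction (6), 8 for the CD2 split (3) and 4 for PP minus non-PP (2). The pig as a replicate block gave 7 in the CD2 split and moved no other count by over 1.5 times. Cells of at least 2000 UMIs gave 1 for the interaction, 0 for PP and 3 for the IL22 contrast. CD3D at 0 gave 1 for the IL22 contrast and 1 for PP, and no UMI of other lineages gave 1 for PP. DESeq2 gave 9 for the interaction, 3 for PP and 3 for the IL22 contrast. Sums per library gave 14 within ileum and 3 for the IL22 contrast. Without the whole ileum libraries the counts were 5 within ileum, 1 for the IL22 contrast, 4 for the interaction and 2 for the CD2 split. Leaving out 1 library at a time gave 18 to 21 for ileum minus blood, 6 to 15 within ileum, 8 to 16 within blood, 1 to 4 for the IL22 contrast, 4 to 12 for the interaction, 2 to 6 for the CD2 split and 0 to 2 for PP. The median over genes, gates and tissues of the share of cells with a UMI was 3.53% thinned and 7.52% not thinned. The causes were not tested. With 2 pigs, p-values rest on the spread shared over the gates.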
